A study of Mus musculus with 5 samples.

Results

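Genes of cholesterol synthesis, of its control by sterols, and of cholesterol transport and efflux were followed in mouse glioma cells given insulin-like growth factor 1 (IGF-1). The 32 genes were chosen by symbol, and all 32 were found among the 29495 genes of each count table. They comprise 18 enzymes of synthesis, 4 control genes of the transcription factor SREBP2, 4 genes of egress, transport and storage, and 6 genes of efflux and of the liver X receptors (LXR). A filter on low counts left 31 of them for testing, and Nr1h3 did not pass it.

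The cells were sorted on the red fluorescent protein tdTomato from co-culture with olfactory bulb neurons of C57BL/6 mice and carried the genotype p53-/-;NF1-/-;tdTomato+/- in both groups. The tumor mice were of mixed CD-1 and C57BL/6 descent, and the labels do not say whether the libraries derive from more than 1 tumor or culture. Polyadenylated RNA was sequenced from 2 unstimulated co-cultures (control replicates 1 and 2) and from 3 co-cultures given 20 ng/mL of IGF-1 overnight (IGF-1 replicates 3, 4 and 5). The neurons of both groups had been plated with insulin and serum, so the controls may not have been free of growth factors or of serum lipoproteins. Because the tumor or culture behind each library is not given, p-values speak only of how these libraries vary, which can be technical variation.

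Libraries held 16944315 to 20144181 counts. IGF-1 replicate 5 stood apart: over genes with a mean of at least 10 CPM (counts scaled to library size), the SD of its log2 difference from replicates 3 and 4 was 0.224, against 0.111 between those and 0.116 between the controls. Results that rest on it are given with and without it. Progenitor-type glioma markers (Olig1, Olig2, Sox10, Pdgfra and Cspg4) summed to 2711 to 2828 CPM in the controls and 2887 to 3340 CPM with IGF-1. The neurons of the co-culture left little RNA after the sort: 6 neuronal markers summed to 7.39 to 7.79 CPM in the controls and 8.43 to 14.7 CPM with IGF-1, where replicate 5 was highest. Most of the excess in replicate 5 was Syt1, at 11.35 CPM there and 4.67 to 5.56 CPM in the other libraries. Snap25 and Gad2 were also highest in replicate 5, at 1.03 and 0.734 CPM. Gad1 was highest in replicate 4, and Rbfox3 and Slc17a6 had 0 counts in replicate 5.

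Cells make cholesterol from acetyl-CoA through mevalonate, squalene and lanosterol. When sterols are scarce in the endoplasmic reticulum, the escort protein SCAP carries SREBP2 to the Golgi, where it is cut into an active factor that raises the enzymes of synthesis, while INSIG proteins hold SCAP back when sterols are plentiful. Oxysterols activate LXR, which raises the exporters ABCA1 and ABCG1, the lipoprotein APOE, and MYLIP, a ligase that marks lipoprotein receptors for degradation. Insulin-like signals are known to promote SREBP processing through AKT and mTORC1, and many gliomas depend on cholesterol taken up from their surroundings.

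The promoters are shown first, since the enzymes and the exporters are known to answer to different factors. Windows from 250 bases before to 50 bases after a start were found for 26 of the 32 genes in RefSeq (build GRCm38.p6). Abcg1, Fdft1, Fdps, Npc1, Sqle and Stard4 had no entry. The 190 bases before the start are given here for Hsd17b7, the enzyme gene that passed the test, for 3 other enzyme genes and for Abca1, the exporter gene whose IGF-1 libraries lay below the controls. Capitals mark the letters TCACNCCAC (a sterol regulatory element), CCAAT (bound by NF-Y), GGGCGG (bound by Sp1), CACGTG (an E-box) and a loose form of the LXR direct repeat, each on either strand. All are written 5′ to 3′ along the gene's own strand.
Hsd17b7, chr1:169969206-169969395, minus strand: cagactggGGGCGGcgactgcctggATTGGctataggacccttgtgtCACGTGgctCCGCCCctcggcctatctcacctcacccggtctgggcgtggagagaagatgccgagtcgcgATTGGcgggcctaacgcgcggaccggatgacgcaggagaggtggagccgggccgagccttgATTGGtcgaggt
Msmo1, chr8:64733579-64733768, minus strand: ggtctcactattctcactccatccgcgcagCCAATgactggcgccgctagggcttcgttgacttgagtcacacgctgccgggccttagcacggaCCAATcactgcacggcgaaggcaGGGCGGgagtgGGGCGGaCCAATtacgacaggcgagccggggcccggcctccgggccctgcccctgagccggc
Hmgcs1, chr13:119690161-119690350, plus strand: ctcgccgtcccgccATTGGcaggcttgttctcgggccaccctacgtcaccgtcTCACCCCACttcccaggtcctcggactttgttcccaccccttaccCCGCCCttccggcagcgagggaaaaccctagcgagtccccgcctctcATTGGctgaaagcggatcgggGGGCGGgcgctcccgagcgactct
Cyp51, chr5:4104698-4104887, minus strand: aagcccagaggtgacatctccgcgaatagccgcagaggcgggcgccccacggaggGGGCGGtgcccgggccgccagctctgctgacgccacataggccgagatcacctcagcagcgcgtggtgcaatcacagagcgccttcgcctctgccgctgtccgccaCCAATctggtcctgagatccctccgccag
Abca1, chr4:53159896-53160085, minus strand: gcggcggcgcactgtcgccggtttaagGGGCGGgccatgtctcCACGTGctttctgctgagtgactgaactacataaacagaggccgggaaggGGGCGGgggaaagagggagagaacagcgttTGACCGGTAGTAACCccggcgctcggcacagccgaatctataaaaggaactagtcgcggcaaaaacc

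Hmgcs1 was the only one of the 15 enzyme genes with a window to hold TCACNCCAC, from 137 to 129 bases before its start, and 1.44% of 27025 genes with a window held it. CCAAT was present in 14 of the 15 enzyme genes and in 1 of 5 efflux and LXR genes with a window, Mylip. It was also in 3 of 4 SREBP2 control genes and 2 of 2 egress, transport and storage genes with a window. It was present in 41.1% of all genes with a window and in 43.3% of the 11122 that passed the filter on low counts. GGGCGG was also in 14 of the 15 enzyme genes, but 67.4% of the genes that passed the filter held it. Hsd17b7 held 3 CCAAT runs and 1 CACGTG, Msmo1 held 3 CCAAT runs, and Cyp51 held 1 CCAAT run. CACGTG was in 3 of the 15 enzyme genes (Dhcr7, Hsd17b7 and Sc5d) and in 11.4% of the genes that passed the filter. It was also in 2 of 4 SREBP2 control genes, 0 of 2 egress, transport and storage genes and 1 of 5 efflux and LXR genes, Abca1. The loose LXR repeat was present in 0.818% of all genes and, among these genes, in Abca1 alone, from 67 to 53 bases before its start. The strict form of that repeat was in none of the 26 genes and in 0.0148% of all genes, and the looser sterol element TCANNCCAC, which overlaps the strict one, was in Hmgcs1 and Mylip and in 4.78% of all genes. These matches describe letters only, and genes with several starts were counted once if any window held them.

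Among the enzymes, 1 of 18 rose and 0 fell with IGF-1 by edgeR's quasi-likelihood test (adjusted p under 0.05), where 0.685% of the 15919 genes tested rose and 0.339% fell. At an unadjusted p under 0.05, 8 of the 18 were higher and 0 lower, against 7.1% and 5.57% of all genes. DESeq2 and limma-voom also called 1 higher and 0 lower. Log2 changes were above 0 for 14 of the 18, against 48.3% of all genes, with a median of 0.16 beside -0.008 for all genes tested. Every IGF-1 library lay above both controls for 8 of the 18 enzyme genes, against 16.2% of all genes, and every one lay below for 1, Pmvk, against 16.9%. The sizes were small, with log2 changes of the 18 from -0.14 to 0.49.

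**Figure D1:**
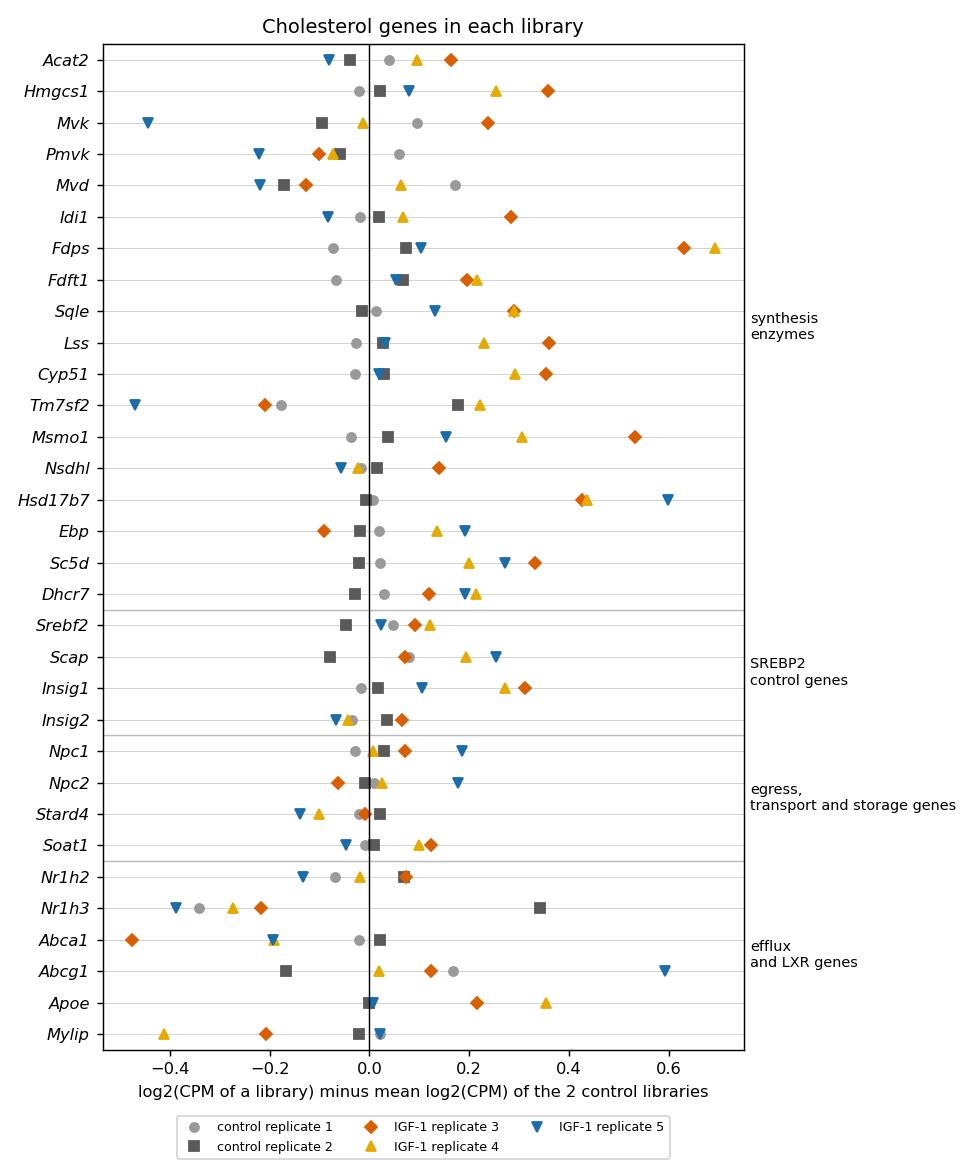
Each row is a gene and each point a library, placed by its log2 CPM minus the mean log2 CPM of the 2 controls. Among the synthesis enzymes, IGF-1 replicates 3 and 4 lie mostly to the right of 0, replicate 5 lies lowest of the 3 for 14 of 18, and Hsd17b7 has its IGF-1 libraries at 0.43, 0.44 and 0.60.

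Hsd17b7 encodes the ketone reductase of sterol C4 demethylation, and also converts estrone to estradiol. It stood at 32.8 and 32.5 CPM in the controls and at 43.9, 44.2 and 49.5 CPM in IGF-1 replicates 3, 4 and 5. The groups did not overlap, and the highest value was that of replicate 5. The gene rose by 0.49 on the log2 scale (SE 0.09, adjusted p = 0.0306), which is 40.4% above the control level. Its log2 change was 0.43 without replicate 5 (adjusted p = 2.85e-05). Over 12 alternative settings it stayed between 0.43 and 0.52 and was called in 8. The adjusted p ran from 2.85e-05 to 0.49, and the call was lost without control replicate 1 (adjusted p = 0.445), control replicate 2 (0.49), IGF-1 replicate 3 (0.0874) or IGF-1 replicate 4 (0.0813).

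In the first steps of the pathway no gene passed the test with all libraries. Hmgcs1, the gene of the synthase that makes HMG-CoA, was at 203 and 209 CPM in the controls and at 264, 245 and 217 CPM in IGF-1 replicates 3, 4 and 5. All IGF-1 libraries lay above both controls, replicate 5 by the smallest margin, and the log2 change of 0.23 (SE 0.08) did not pass (adjusted p = 0.267). Without replicate 5 it was 0.31 (SE 0.04, adjusted p = 2.60e-08). Acat2, the thiolase gene of the cytosol, was at 0.06 (SE 0.08). Mvk and Pmvk, the mevalonate and phosphomevalonate kinase genes, were at -0.05 (SE 0.17) and -0.13 (SE 0.10), and Mvd, the decarboxylase gene, at -0.10 (SE 0.13). These consecutive steps had the lowest log2 changes of the enzyme set apart from Tm7sf2, and their difference from Hmgcs1 was not tested. Mvk was at 25.3 and 22.1 CPM in the controls and 27.9, 23.5 and 17.4 CPM with IGF-1, so its IGF-1 libraries lay on both sides of the controls.

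Idi1, Fdps and Fdft1, the later steps before squalene, gave log2 changes above 0 without a call when all libraries were used. Idi1, the isopentenyl diphosphate isomerase gene, was at 51.0 and 52.4 CPM in the controls and 63.0, 54.2 and 48.8 CPM with IGF-1 (log2 change 0.10, SE 0.10). Only replicates 3 and 4 exceeded the controls. Fdps, the farnesyl diphosphate synthase gene, had 48 and 52 control counts against 82, 89 and 64 in the IGF-1 libraries. In CPM it was at 2.77 and 3.07 against 4.52, 4.71 and 3.13, a log2 change of 0.49 with the widest SE of the enzyme set, 0.24 (adjusted p = 0.435, or 0.0541 without replicate 5). Its level was low for an enzyme of this pathway, and no source used here gives how multiply mapped reads were counted, so reads shared with copies elsewhere in the genome may be missing from it. Fdft1, the squalene synthase gene, was at 52.6 and 57.7 CPM in the controls and 63.1, 64.0 and 57.1 CPM with IGF-1. Replicate 5 lay between the controls, and the log2 change was 0.16 (SE 0.08, adjusted p = 0.458), or 0.20 without replicate 5 (adjusted p = 0.0316).

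From squalene onward most of the enzyme genes had positive log2 changes, from 0.02 (Nsdhl) to 0.49 (Hsd17b7), and Tm7sf2 was at -0.14. Sqle, the squalene epoxidase gene and a rate-limiting step of the later pathway, was at 212 and 208 CPM in the controls and 256, 256 and 230 CPM with IGF-1. No IGF-1 library overlapped the controls. The log2 change was 0.24 (SE 0.07, adjusted p = 0.173), and 0.29 without replicate 5 (SE 0.04, adjusted p = 6.49e-08). Lss, whose product folds squalene epoxide into lanosterol, was at 60.3 and 62.6 CPM against 78.8, 72.1 and 62.8 CPM. Replicate 5 exceeded the higher control by a fraction of 1 CPM. Cyp51, the lanosterol demethylase gene, was at 168 and 175 CPM in the controls and 219, 209.7 and 174 CPM with IGF-1, so replicate 5 fell inside the control range. The log2 changes of Lss and Cyp51 were 0.21 (SE 0.09) and 0.23 (SE 0.09), with adjusted p of 0.389 and 0.352. Without replicate 5 they were 0.30 and 0.32, with adjusted p of 2.89e-04 and 1.48e-08.

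Msmo1, the sterol C4-methyl oxidase gene, had the third largest log2 change of the enzymes. It stood at 81.1 and 85.5 CPM in the controls and at 121, 103 and 92.6 CPM in IGF-1 replicates 3, 4 and 5. The groups did not overlap, although the IGF-1 libraries differed among themselves by more than replicate 5 differed from the controls. The log2 change was 0.34 (SE 0.10, adjusted p = 0.189), or 0.42 without replicate 5 (SE 0.06, adjusted p = 8.61e-09). Sc5d, the lathosterol desaturase gene, was at 43.3 and 42.1 CPM against 53.8, 49.1 and 51.6 CPM. Here replicate 5 lay between the other 2 IGF-1 libraries. Its log2 change was 0.27 with all libraries (SE 0.08, adjusted p = 0.164) and also 0.27 without replicate 5 (adjusted p = 0.00837). Dhcr7, the gene of the last reductase, was at 0.17 (SE 0.07, adjusted p = 0.312), with all IGF-1 libraries above the controls, between 79.5 and 84.9 CPM against 71.8 and 74.8 CPM.

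The other sterol steps showed little change beyond the spread. Nsdhl, which acts beside Msmo1 and Hsd17b7 in C4 demethylation, was at 0.02 (SE 0.09), and Ebp, the sterol isomerase gene, at 0.08 (SE 0.10). Tm7sf2, one of the genes for C14 reduction, had 77 to 115 counts per library and a log2 change of -0.14 with an SE of 0.23. Within the C4 demethylation complex, then, the 3 genes had log2 changes of 0.34, 0.02 and 0.49, of which the last passed the test. Differences between these genes were not tested.

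**Figure D2:**
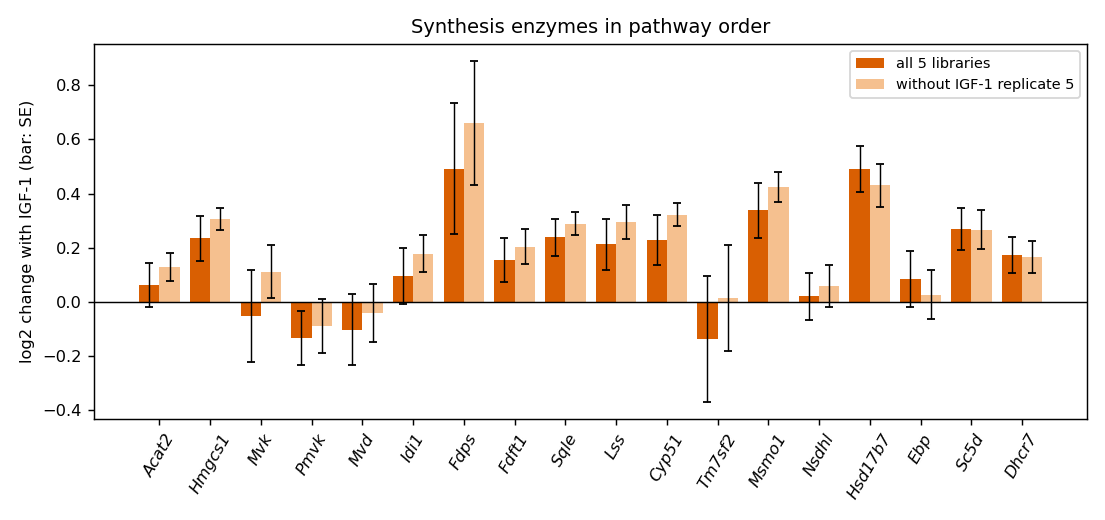
Bars give the log2 change with IGF-1 of each synthesis enzyme gene, from acetyl-CoA (left) to cholesterol (right) in a simplified order, from the fits with and without IGF-1 replicate 5, and error bars give the SE. Mvk, Pmvk and Mvd lie below 0 with all libraries, and Hsd17b7, Fdps and Msmo1 have the tallest bars.

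Replicate 5 lay apart from the other IGF-1 libraries in these genes. Of the 18 enzyme genes, 14 were above both controls in replicate 3 and 14 in replicate 4, where 35.9% and 36.1% of all genes tested were. In replicate 5, 9 were above both controls and 7 below both, against 39.3% and 41.8% of all genes. Replicate 5 was the lowest of the 3 IGF-1 libraries for 14 of 18 enzyme genes, against 39.4% of all genes, and the highest for 2, Hsd17b7 and Ebp. The median log2 difference of the enzymes from the controls was 0.26, 0.21 and 0.04 in replicates 3, 4 and 5, with medians of -0.001, -0.003 and -0.007 for all genes tested. Without replicate 5, 8 of 18 enzyme genes were called higher and 0 lower, where 5.49% and 3.65% of 15573 genes were. Those 8 were Cyp51, Fdft1, Hmgcs1, Hsd17b7, Lss, Msmo1, Sc5d and Sqle, with a median log2 change of 0.19 over all 18. Why that library differs was not tested.

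**Figure D3:**
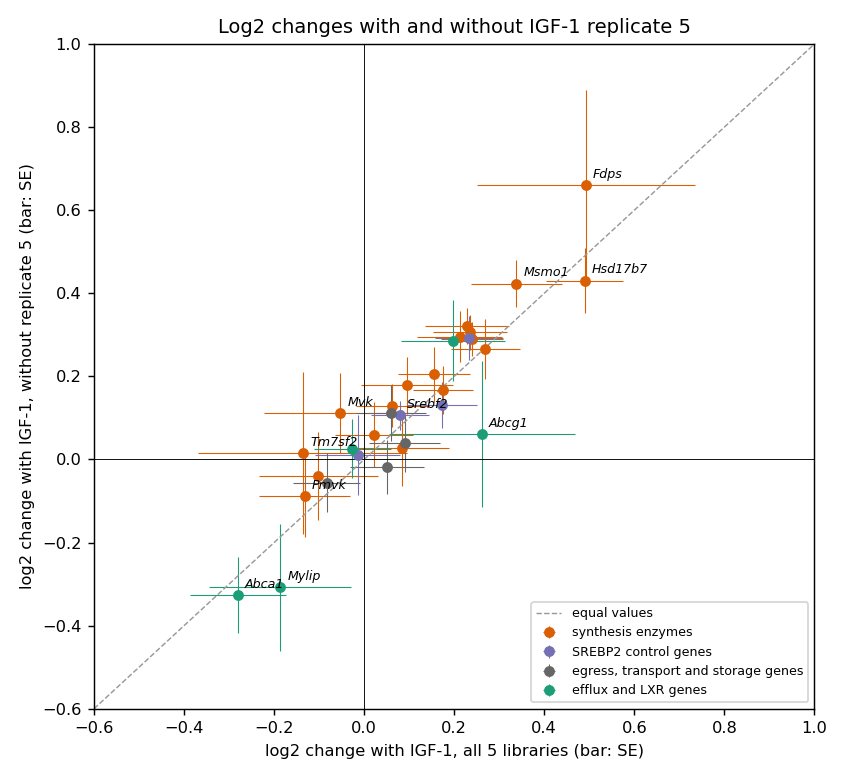
Each point is a gene, placed by its log2 change with all 5 libraries (horizontal) and without IGF-1 replicate 5 (vertical), with SE bars and colours for the 4 gene groups. Of the 18 synthesis enzymes 14 lie above the line of equal values, Hsd17b7 lies below it at 0.49 and 0.43, and Abca1 and Mylip are negative on both axes.

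The control genes of SREBP2 gave 0 calls in either direction by edgeR, DESeq2 and limma-voom, with 1 of 4 higher and 0 lower unadjusted, against 7.1% and 5.57% of all genes. Insig1, itself a target of SREBP2 and the brake on its transport, was at 86.1 and 88.1 CPM in the controls and 108, 105 and 93.7 CPM in IGF-1 replicates 3, 4 and 5. It followed the pattern of Hmgcs1, with all IGF-1 libraries above the controls and replicate 5 nearest to them. Its log2 change was 0.23 (SE 0.08, adjusted p = 0.228), or 0.29 without replicate 5 (adjusted p = 2.51e-05). Insig2, the second INSIG gene, was at -0.01 (SE 0.10). Srebf2 itself was at 532 and 499 CPM in the controls and 549, 561 and 524 CPM with IGF-1, and replicate 5 lay between the controls. Its log2 change of 0.08 (SE 0.06) did not pass (adjusted p = 0.654). Without replicate 5 it was 0.11 and passed narrowly (adjusted p = 0.0432). Scap was at 0.17 (SE 0.08, adjusted p = 0.398), with 90.7 and 81.3 CPM in the controls and 90.2, 98.2 and 102 CPM with IGF-1.

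**Figure D4:**
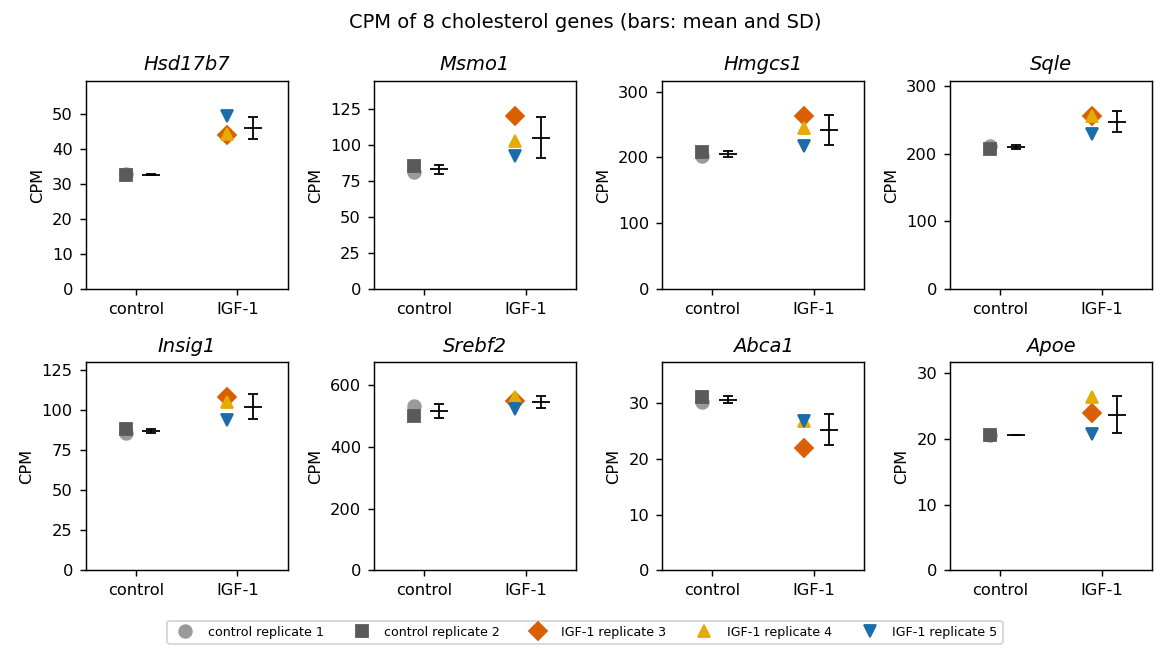
CPM of 8 genes in each library, with controls at left and IGF-1 libraries at right in each panel, and the mean with its SD beside the points on axes that start at 0. Hsd17b7 is highest in IGF-1 replicate 5, at 49.5 CPM, while Msmo1, Hmgcs1, Sqle and Insig1 have replicate 5 closest to the controls, and Abca1 lies lower in all 3 IGF-1 libraries.

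Divided by transcript length, Srebf2 was the most abundant gene of the set. It stood at 101.5 CPM per kb in the controls, ahead of Sqle at 76.0 and Hmgcs1 at 59.4 CPM per kb. Hsd17b7 was at 7.09 CPM per kb, below Msmo1 at 40.8 and Cyp51 at 43.6. Of the exporters, Abca1 was at 2.99 and Abcg1 at 1.06 CPM per kb. These levels use 1 transcript per gene of a GRCm38 annotation, so they are approximate.

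Genes of cholesterol egress, transport and storage did not pass in either direction. EdgeR, DESeq2 and limma-voom called 0 of 4, and by edgeR 0 were under 0.05 unadjusted. Npc1, which exports cholesterol from lysosomes after lipoprotein uptake, was at 49.5 and 51.5 CPM in the controls and 53.0, 50.8 and 57.5 CPM with IGF-1 (log2 change 0.09, SE 0.08). Its soluble partner Npc2 was at 0.05 (SE 0.08). Stard4, a sterol carrier gene known as an SREBP2 target, was at 49.9 and 51.3 CPM against 50.2, 47.1 and 45.9 CPM. Its log2 change was -0.08 (SE 0.08), or -0.06 without replicate 5, and its difference from other SREBP2 targets was not tested. Soat1, which esterifies cholesterol for storage, was at 0.06 (SE 0.08).

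Efflux and LXR genes showed no common direction. Of the 5 tested, 0 were called in either direction by edgeR, DESeq2 and limma-voom, and unadjusted 1 was lower (Abca1) and 0 were higher, against 5.57% and 7.1% of all genes. Their median log2 change was -0.03, beside 0.16 for the enzymes and -0.008 for all genes tested. The sign of that median turned with the library left out, from -0.13 without control replicate 1 to 0.05 without control replicate 2, and it was 0.03 without IGF-1 replicate 5. Because the median of 5 genes is the value of 1 gene, single genes are more informative here.

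Abca1, the main exporter of cholesterol to lipid-poor apolipoproteins, was at 30.2 and 31.1 CPM in the controls and at 22.0, 26.8 and 26.8 CPM in IGF-1 replicates 3, 4 and 5. All IGF-1 libraries lay below both controls, and replicate 3 was the lowest. The log2 change was -0.28 (SE 0.11, adjusted p = 0.31), and -0.33 without replicate 5 (SE 0.09, adjusted p = 0.0115). Mylip was at 9.29 and 9.03 CPM against 7.93, 6.88 and 9.30 CPM, so replicates 3 and 4 lay below the controls and replicate 5 just above. Its log2 change was -0.19 (SE 0.16, adjusted p = 0.666). Abcg1, a second exporter gene, lay above both controls in replicate 5 only. It was at 6.93 and 5.49 CPM in the controls and 6.72, 6.25 and 9.30 CPM with IGF-1, with a log2 change of 0.26 (SE 0.21), or 0.06 without replicate 5.

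Apoe was at 20.6 CPM in both controls and at 23.9, 26.3 and 20.7 CPM in IGF-1 replicates 3, 4 and 5. Replicates 3 and 4 lay above the controls, and replicate 5 was level with them. The log2 change was 0.20 (SE 0.12, adjusted p = 0.521), or 0.29 without replicate 5 (adjusted p = 0.0469). Apoe is abundant in microglia and astrocytes. All 7 microglial and macrophage markers found averaged under 1 CPM, and their sum was 0.708 to 1.21 CPM in the controls and 0.685 to 1.05 CPM with IGF-1. Among 6 astrocyte markers, Aqp4 (7 to 22 counts per library), Aldh1l1 (8 to 29) and Gja1 (38 to 62) were highest in replicate 4 as Apoe was. The more abundant Slc1a2 was lowest in replicate 4 (71.8 CPM) and highest in replicate 5 (99.3 CPM), Aldoc was highest in replicate 5 (76.5 CPM), and Gfap was highest in control replicate 2 (10.3 CPM). The list summed to 158 to 171 CPM in the controls and 152 to 185 CPM with IGF-1. The part of such cells in the Apoe values was not tested. In bulk RNA, fewer cells of a type and less RNA per cell cannot be told apart.

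The receptor genes of LXR were unequal in level. Nr1h2 was at 47.0 and 51.8 CPM in the controls and 51.9, 48.7 and 45.0 CPM with IGF-1 (log2 change -0.03, SE 0.09). The groups overlapped throughout. Nr1h3 had 7 and 11 control counts and 8 in each IGF-1 library, too few for a test. Per length, Nr1h2 stood at 24.7 and Nr1h3 at 0.269 CPM per kb in the controls.

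The synthesis enzymes and the efflux and LXR genes are set side by side here. Without replicate 5, when 5.49% of all genes were called higher and 3.65% lower, 8 of 18 enzymes and 2 of 4 control genes were called higher and 0 lower, while of 5 efflux and LXR genes 1 was called higher (Apoe) and 1 lower (Abca1). With all libraries, 1 enzyme was called and 0 genes of the other 3 groups. The difference between the groups of genes was not tested, because the genes were chosen with results known.

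Other genes of sterol metabolism, listed whatever their values, were mostly close to the controls. Of 38 genes 33 were tested, and edgeR, DESeq2 and limma-voom called 0 in either direction, with a median log2 change of 0.02. Unadjusted, 2 were higher and 0 lower, a share of higher genes near the 7.1% of all genes. The 2 were Lrp8 and Lrp1. Lrp8, a receptor that MYLIP is known to mark for degradation, was at 73.0 and 68.7 CPM in the controls and 85.8, 79.8 and 95.5 CPM with IGF-1, with no overlap (log2 change 0.30, SE 0.08, adjusted p = 0.166). Lrp1, a large endocytic receptor for APOE, was at 0.20 (SE 0.08, adjusted p = 0.37). Without replicate 5, Lrp8 (0.22, adjusted p = 0.00559) and Lrp1 (0.13, adjusted p = 0.0363) were called higher. Vldlr, the other known MYLIP target on the list, was at -0.02 (SE 0.06). These 3 genes outside the 32 were named after their values were seen.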

How the data were processed

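The authors deposited raw counts of reads per gene symbol, 1 table per library. The build was GRCm39, and STAR 2.7.9a, cutadapt 3.4, DESeq2 1.28.1 and featureCounts 2.0.1 were used, per the submitters' processing notes. Their settings, the annotation, and the use of strand and multiply mapped reads are not given in the sources used here, so reads of overlapping genes, antisense genes and copies can be shared.

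Groups came from the titles. The counts were fitted with edgeR 4.0.16 under R 4.3.3 (filterByExpr, minimum count 10 and total 15; TMM factors; quasi-likelihood F-test over 15919 genes; Benjamini-Hochberg adjustment, threshold 0.05). SE is the log2 change divided by the square root of F. CPM use TMM factors. Alternatives were RLE factors, total counts, no filter, DESeq2 1.42.0, limma-voom (limma 3.58.1) and each library left out. Sample quality weights and an offset for transcript length were added after seeing the data. The fits were also run on simulated data with a spread shared by all libraries and with larger changes than those of the enzymes. That run cannot show how the fits handle a library that stands apart or changes this small.

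The genes, lists and tests were chosen with earlier results of these data known. All 32 genes are accounted for. CPM per library are given for the called gene, for 14 genes chosen by name, and for genes called only without replicate 5, and a few further values were added after they were seen. Of the other pathway genes, those past the threshold were to be named. Some genes of the pathway are not reported here. Promoters came from RefSeq (GRCm38.p6), and no coordinates were converted between builds.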

Additional observations from a re-analysis of the deposited data

How the results depend on the processing

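No paired analysis was possible because the groups share no replicate numbers. Over the libraries left out in turn, the count of enzymes higher ran from 0 to 8 (1 with all libraries), of SREBP2 control genes higher from 0 to 2, of efflux and LXR genes higher and lower each from 0 to 1, and of other pathway genes higher from 0 to 4. The highest count was that without IGF-1 replicate 5 in each case, and the lowest is 0 without any of the other 4 libraries. The enzymes' median ran from 0.14 to 0.19, and that of efflux and LXR genes from -0.13 to 0.046. Signs turned for uncalled genes near 0: Mvk ran from -0.22 to 0.11, Mvd from -0.26 to 0.084, Tm7sf2 from -0.35 to 0.052, Idi1 from -0.0046 to 0.18, Nsdhl from -0.039 to 0.060, Insig2 from -0.053 to 0.021, Npc2 from -0.018 to 0.11 and Nr1h2 from -0.092 to 0.046. Fits with a lone control take its variance from the IGF-1 libraries.

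With no filter on low counts, 4 enzymes (Hmgcs1, Hsd17b7, Msmo1 and Sqle) and 1 other pathway gene were higher, and the efflux and LXR median, which then includes Nr1h3, was -0.10. With sample quality weights, 7 enzymes, 1 SREBP2 control gene and 1 other pathway gene were higher, the efflux and LXR median was 0.011, and Mvk, Insig2 and Nr1h2 turned to 0.054, 0.0034 and 0.011. RLE factors, total counts, DESeq2, limma-voom and the length offset each left Hsd17b7 as the 1 member called. Over all genes 109 were higher and 54 lower, against 191 and 89 by DESeq2, 385 and 221 with no filter, 480 and 331 with quality weights, 163 and 92 with the length offset, and 0 to 855 and 2 to 569 with 1 library left out. The cause was not tested. Depth limits Fdps, Tm7sf2 and Nr1h3 most, with 48 to 89, 77 to 115 and 7 to 11 counts per library.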
